A study of Oryza sativa Japonica Group and Oryza sativa Indica Group and Oryza sativa Indica Group x Oryza sativa Japonica Group with 9 samples.

Results

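The chromosome 10 divergent block is a run of neighbouring rice loci, from LOC_Os10g03570 to LOC_Os10g05490 in the order of their IDs. It holds 162 of the 55783 loci listed for each library and 162 of the 3506 loci of chromosome 10. It was chosen by measured values: in an earlier reading of the same data, it was a window of 50 neighbouring tested loci with a high share of loci that differed at least 2-fold between the parents. The difference between C92 and MH63 within it is therefore a description and carries no test.

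Polyadenylated RNA was sequenced from shoots of 14-day-old seedlings of 3 groups, with 3 libraries each. F1 is the hybrid of C92 and MH63, C92 is the first parent line and MH63 is the other. C92 is labelled japonica-group material in the series; MH63, Minghui 63, is an indica restorer line used in hybrid rice breeding. The hybrid is written C92×MH63 in one label and MH63 x C92 in another, so which parent was the mother is not given. Seedlings of all 3 groups grew in water at 28 °C, with 16 h of light at 100 µmol m-2 s-1 and a night of 8 h. The replicates are called biological without a word on how plants were divided, so a p-value covers the spread between these libraries, which may be technical. The files tie no ID to a gene name and the RefSeq gene table used here holds 0 of these IDs, so loci are given by ID without names, roles, coordinates or sequences, and the shoot label was not checked against marker genes. The chromosome is the number inside the ID.

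Rice locus IDs are numbered along each chromosome, so the block lies near the start of chromosome 10. That is its short arm, which is known in rice for much heterochromatin and many transposable elements. Japonica and indica rice diverged long before breeding, and their genomes differ by sequence changes and by genes that are present in one and missing or silent in the other. An F1 plant inherits 1 copy of each locus from each parent. If both copies keep their parental activity, the hybrid lies at the mid-parent, the average of both parents, and a locus active in a single parent reaches 0.5 of that parent's level.

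Values are FPKM, fragments scaled by transcript length and by library depth, which can be compared between loci because they are set per length. Loci above 0 numbered 32611 to 33329 in F1 libraries, 31709 to 32198 in C92 and 30440 to 31343 in MH63. Read numbers are not given; judged from the steps between low values, depth relative to C92 library 1 was 1 to 1.25 in F1, 1 to 1.14 in C92 and 0.955 to 1.09 in MH63. Replicates correlated at 0.977 to 0.99 across tested loci, which are not independent. The F1 libraries were not alike between the parents: over all 2331 loci past 2-fold, on a scale that sets C92 at 1 and MH63 at 0, F1 libraries 1, 2 and 3 had median positions of 0.584, 0.607 and 0.479. Some F1 results are therefore also given by library or without libraries 1 and 2. A fit without libraries 1 and 2 has only library 3 in F1, so its error rests on the parental libraries. In bulk shoots, fewer cells of a type and less RNA per cell cannot be told apart.

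Most loci of the block were silent or nearly so. In all 9 libraries 43 of the 162 were listed at 0, 69 were above 0 but too low to test and 50 were tested, that is, they reached FPKM 1 in at least 3 libraries. The tested share was 30.9%, against 20.5% in the 200 loci before the block, 26.0% in the 200 loci after it and 38.4% of all loci. Among the 69 low loci, the highest mean over 9 libraries was 0.919 FPKM and the median was 0.0522. The tested loci were also low for their kind. Their median FPKM was 2.45 in the hybrid, 3.30 in C92 and 2.00 in MH63, where all tested loci had medians of 9.38, 9.59 and 9.15 FPKM. A mean of at least 10 FPKM over the 9 libraries was reached by 6 of the 50, or 12%, against 48.6% of all tested loci. Of the 50, 23 were at FPKM 1 or more in all 9 libraries, 1 reached that level in the 3 C92 libraries alone and 2 in the 3 MH63 libraries alone.

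Summed over its 162 loci, the block reached 289.9 ± 18.6 FPKM in F1, against 319.9 ± 30.4 in C92 and 243.7 ± 6.72 in MH63 (SD, 3 libraries each). The MH63 sums, 239.7 to 251.4, lay below all F1 sums, 268.9 to 304.1, and all C92 sums, 289.6 to 350.4, while F1 and C92 overlapped. LOC_Os10g05130 alone, described with the abundant loci, had a mean of 41.7 FPKM in F1, against 34.3 in C92 and 11.1 in MH63. The number of block loci at FPKM 1 or more was 43 to 46 in F1 libraries, 42 to 47 in C92 and 35 to 38 in MH63.

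Between the parents, 25 of the 50 tested loci passed 2-fold with an adjusted p below 0.05, the measure that chose the block, where 10.9% of all tested loci did. Of these 25, 17 were higher in C92 (6.46% of all tested loci) and 8 were higher in MH63 (4.41%). With no minimum fold, 34 of the 50 were called, where 34.1% of all tested loci were. The median size of the difference, whatever its direction, was 1.04 on the log2(FPKM + 1) scale in the block and 0.267 over all tested loci. At the 2-fold limit, LOC_Os10g04510 stood just inside at a log2 difference of -1.01 and LOC_Os10g05340 just outside at -0.99; the second was picked after its values were seen.

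The block had no sharp edge. Its first tested loci, LOC_Os10g03570 and LOC_Os10g03600, were past 2-fold at log2 differences of -1.45 and 1.62. The nearest tested loci outside, LOC_Os10g03540 and LOC_Os10g03550, had 0.07 and -0.15. At the far end, LOC_Os10g05460 and LOC_Os10g05490 stood at 1.76 and 1.53 inside the block, and LOC_Os10g05530 and LOC_Os10g05540 at -0.33 and -0.37 outside it. Yet the flanks also held many differing loci. In the 200 loci before the block 16 of 41 tested loci were past 2-fold (39.0%), and in the 200 after it 14 of 52 (26.9%), against 11.7% over chromosome 10 without the block.

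**Figure D1:**
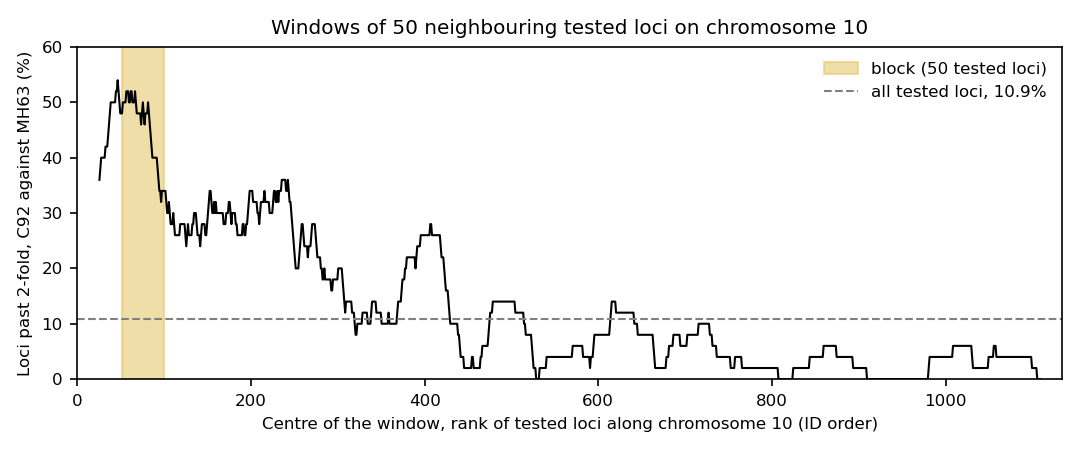
Share of loci past 2-fold between C92 and MH63 (adjusted p below 0.05) in every window of 50 neighbouring tested loci along chromosome 10, by the rank of the window's centre in ID order; the shaded band is the block and the dashed line is the share of all tested loci. The share is 50% in the block, 10.9% over all tested loci, and it is high over the whole beginning of the chromosome.

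Windows of 50 tested loci showed how far the differing region extended. The window just before the block had 36% of its loci past 2-fold and the window just after it 24%. The highest window of the chromosome, with 54%, ran from LOC_Os10g02260 to LOC_Os10g04570 and so covered the beginning of the block and part of the flank before it. Windows with at least 20% past 2-fold followed each other without a gap from LOC_Os10g01044 to LOC_Os10g20600, a limit picked after the values were seen. This stretch held 306 tested loci, of which 99 were past 2-fold (32.4%), 69 higher in C92 and 30 higher in MH63. Over the other 827 tested loci of chromosome 10 the share was 6.41%. The block is thus a high part of a longer differing region.

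**Figure D2:**
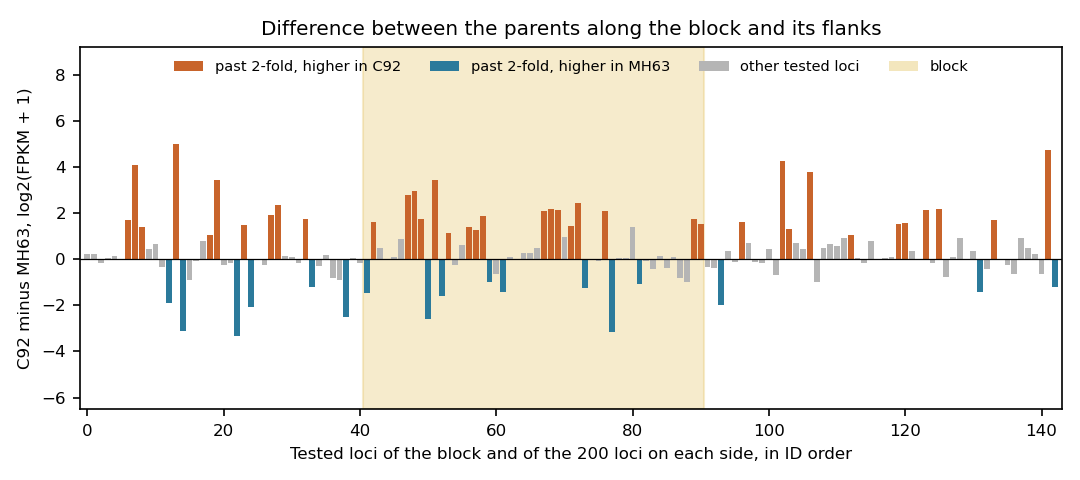
Difference between the parents, C92 minus MH63 on the log2(FPKM + 1) scale, for each tested locus of the block (shaded) and of the 200 loci on each side, in ID order. Loci higher in C92 and higher in MH63 alternate within the block, and grey loci that are not past 2-fold stand between them.

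Within the block, loci of both directions were interleaved. The 17 loci higher in C92 formed 9 stretches of neighbouring tested loci, none longer than 3. The 8 loci higher in MH63 each stood alone. The 25 tested loci that were not past 2-fold formed 8 stretches, of which the longest had 7 loci, from LOC_Os10g05200 to LOC_Os10g05340. A stretch of 5, from LOC_Os10g04580 to LOC_Os10g04620, lay in the middle of the block, directly before 3 neighbours that were listed at 0 in MH63. Taken 10 tested loci at a time along the block, 6, 7, 4, 5 and 3 loci were past 2-fold, so its beginning held more of them than its end.

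The loci past 2-fold with an adjusted p below 0.05 overlapped in level with the other tested loci of the block. Over the 9 libraries, the means of the 25 loci past 2-fold ranged from 0.621 to 8.61 FPKM, with a median of 2.43. Those of the other 25 ranged from 0.947 to 39.8 FPKM, with a median of 3.23. Of the 25 past 2-fold, 14 were near 0 in 1 parent, which by itself lowers a mean over 9 libraries. Of the 6 loci with a mean of at least 10 FPKM, 0 were past 2-fold with an adjusted p below 0.05. Among them, LOC_Os10g05130 had a C92 mean more than 2-fold above that of MH63. Its C92 libraries spread widely and it missed the limit on the adjusted p. The share past 2-fold over all tested loci of that level is not given here.

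**Figure D3:**
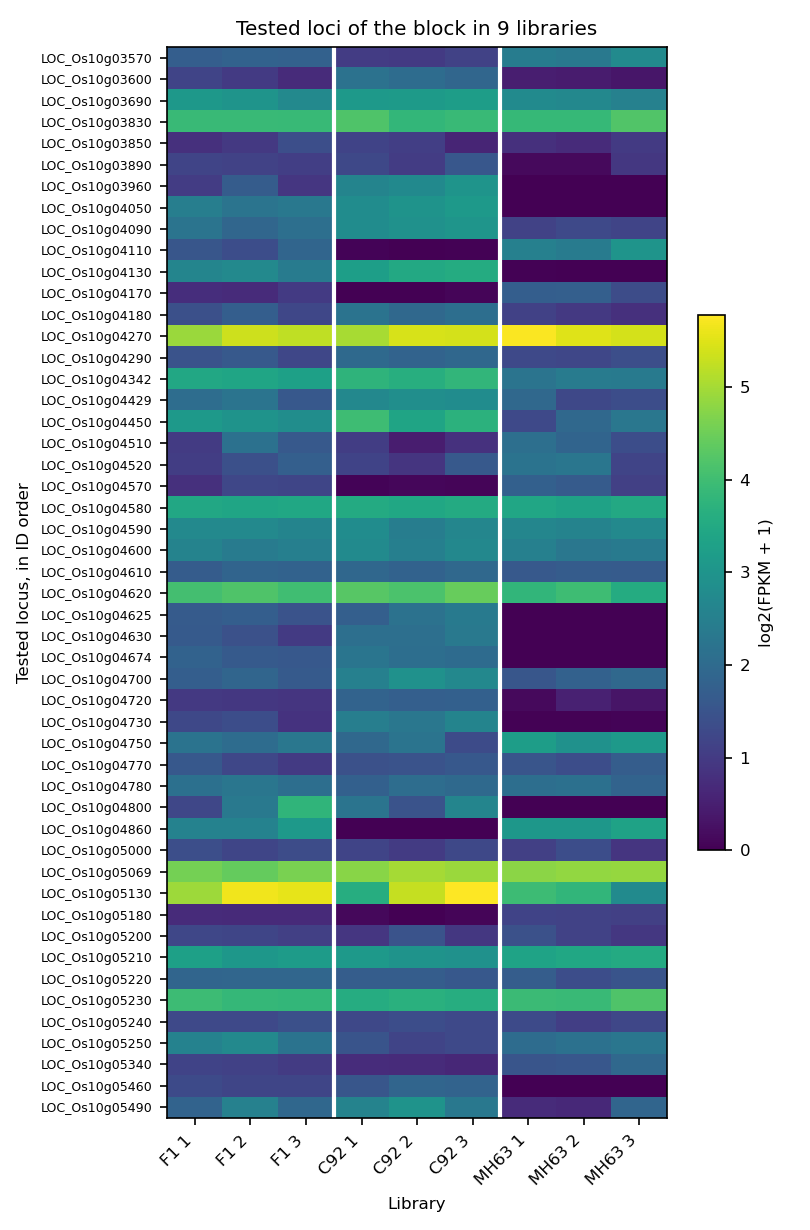
Level of each of the 50 tested block loci (rows, in ID order) in the 9 libraries (columns, F1, C92 and MH63), as log2(FPKM + 1). Dark cells beside bright ones mark the loci expressed in a single parent; the F1 columns are intermediate at most of them, with F1 above C92 on average at LOC_Os10g04800 and within the MH63 range in part at LOC_Os10g04860 and LOC_Os10g04570.

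Many of the differing loci were expressed in 1 parent only, meaning that each of its 3 libraries had FPKM 1 or more and no library of the other parent exceeded 0.1. In the block, 9 of 162 loci were expressed only in C92, where 0.923% of all loci were, and 5 only in MH63, where 0.43% were. The flank before the block held 7 and 1 such loci, and the flank after it 3 and 0. All 14 were among the 25 loci past 2-fold, and these parental values belong to the contrast that chose the block. Of the 9 loci expressed only in C92, 6 were listed at 0 in all 3 MH63 libraries. The genome used for alignment is not given in the sources used here, so lower expression, reads that did not align and loci missing from 1 genome cannot be told apart.

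LOC_Os10g04130 was the locus with the largest parental difference, with 5.24, 5.58 and 4.31 FPKM in F1, 8.38, 10.19 and 10.77 in C92, and 0.02, 0 and 0 in MH63. LOC_Os10g04050 had 4.54, 3.65 and 3.98 FPKM in F1, 5.97, 6.85 and 7.62 in C92, and 0, 0 and 0.01 in MH63. LOC_Os10g03960 had 1.03, 2.21 and 0.89 FPKM in F1, 5.12, 5.66 and 6.99 in C92, and was listed at 0 in every MH63 library. In all 3 loci every F1 library lay between the libraries of the parents, and LOC_Os10g03960 was the lowest of them in the hybrid relative to C92.

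LOC_Os10g04730 had 1.37, 1.58 and 0.79 FPKM in F1, 4.56, 3.91 and 5.05 in C92, and 0.02, 0.02 and 0.04 in MH63. Its F1 libraries were nearer to MH63 than to C92. The neighbours LOC_Os10g04625, LOC_Os10g04630 and LOC_Os10g04674 were listed at 0 in all MH63 libraries and stood in a row among tested loci. LOC_Os10g04625 had 2.16, 2.32 and 1.79 FPKM in F1 and 2.37, 3.53 and 4.21 in C92. LOC_Os10g04630 had 2.11, 1.72 and 0.97 FPKM in F1 and 3.29, 3.35 and 4.08 in C92. LOC_Os10g04674 had 2.51, 2.11 and 2.02 FPKM in F1 and 3.76, 3.25 and 3.06 in C92. None of the F1 libraries reached the lowest C92 library in these 3 loci.

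LOC_Os10g04800 departed from that picture, with 1.35, 4.03 and 12.83 FPKM in F1, 3.66, 1.79 and 5.18 in C92, and 0 in every MH63 library. The F1 libraries spread around those of C92, and library 3 was the highest of all 9. LOC_Os10g05460, near the end of the block, had 1.45, 1.32 and 1.30 FPKM in F1, 1.92, 2.68 and 2.58 in C92, and 0 in every MH63 library. Here the 3 F1 libraries were close together and below all C92 libraries.

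Of the loci expressed only in MH63, LOC_Os10g04860 was the most abundant, with 4.94, 4.93 and 7.55 FPKM in F1, 0, 0.01 and 0 in C92, and 7.36, 7.28 and 9.12 in MH63. F1 library 3 lay within the MH63 range and the other F1 libraries below it. LOC_Os10g04110 had 1.93, 1.58 and 2.71 FPKM in F1, 0.04, 0 and 0.02 in C92, and 4.75, 4.27 and 6.96 in MH63. LOC_Os10g04170 had 0.69, 0.63 and 0.97 FPKM in F1, 0, 0 and 0.05 in C92, and 2.29, 2.38 and 1.55 in MH63. In both, all F1 libraries were between the parents.

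LOC_Os10g04570 had 0.73, 1.34 and 1.30 FPKM in F1, 0.04, 0.07 and 0.06 in C92, and 2.42, 2.18 and 1.13 in MH63. F1 overlapped MH63 there because of MH63 library 3. LOC_Os10g05180 had 0.64, 0.62 and 0.61 FPKM in F1, 0.09, 0 and 0.05 in C92, and 1.23, 1.22 and 1.13 in MH63. The F1 libraries of this locus lay almost exactly at the mid-parent of 0.62 FPKM.

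The other named loci past 2-fold were expressed in both parents. LOC_Os10g03570, the first locus of the block, had 2.33, 2.51 and 2.48 FPKM in F1, 1.04, 0.99 and 1.22 in C92, and 4.37, 4.08 and 5.80 in MH63. LOC_Os10g04750 had 3.59, 3.14 and 3.88 FPKM in F1, 2.87, 3.70 and 1.48 in C92, and 8.34, 6.58 and 7.78 in MH63. LOC_Os10g04510 had 1.00, 3.45 and 2.05 FPKM in F1, 1.06, 0.38 and 0.76 in C92, and 3.29, 2.66 and 1.58 in MH63. F1 was between the parents at the first, overlapped C92 at the second and spread over both parents at the third. LOC_Os10g05490, the last locus, had 2.60, 4.86 and 2.84 FPKM in F1, 4.97, 6.81 and 4 in C92, and 0.63, 0.59 and 2.71 in MH63, and F1 overlapped both parents. LOC_Os10g03600 was also higher in C92 and is described with the mid-parent calls. The remaining 6 loci past 2-fold were all higher in C92, with means of 0.907 to 9.46 FPKM in F1, 2.45 to 12.3 in C92 and 0.273 to 4.02 in MH63.

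The level of the hybrid at the loci expressed in 1 parent is given as its ratio to that parent. The parental values in these ratios chose both the block and the 14 loci, so the ratios are descriptions. Of the 5 loci expressed only in MH63, 0 were listed at 0 in all C92 libraries. In F1, all 9 loci expressed only in C92 and all 5 expressed only in MH63 reached FPKM 0.1 in every library. The median ratio of F1 to the expressing parent was 0.567 for the 9 C92 loci, with a range of 0.232 to 1.71, and 0.522 for the 5 MH63 loci, with a range of 0.368 to 0.733. Over all 515 and 240 such loci of the files the medians were 0.551 and 0.406. By F1 library 1, 2 and 3, the block medians were 0.59, 0.552 and 0.531 for C92 loci and 0.382, 0.52 and 0.511 for MH63 loci. The smallest ratios to C92 were those of LOC_Os10g03960, 0.232, and LOC_Os10g04730, 0.277, and the largest was that of LOC_Os10g04800, which rests on F1 library 3 (ratios of 0.381, 1.14 and 3.62 in libraries 1, 2 and 3).

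**Figure D4:**
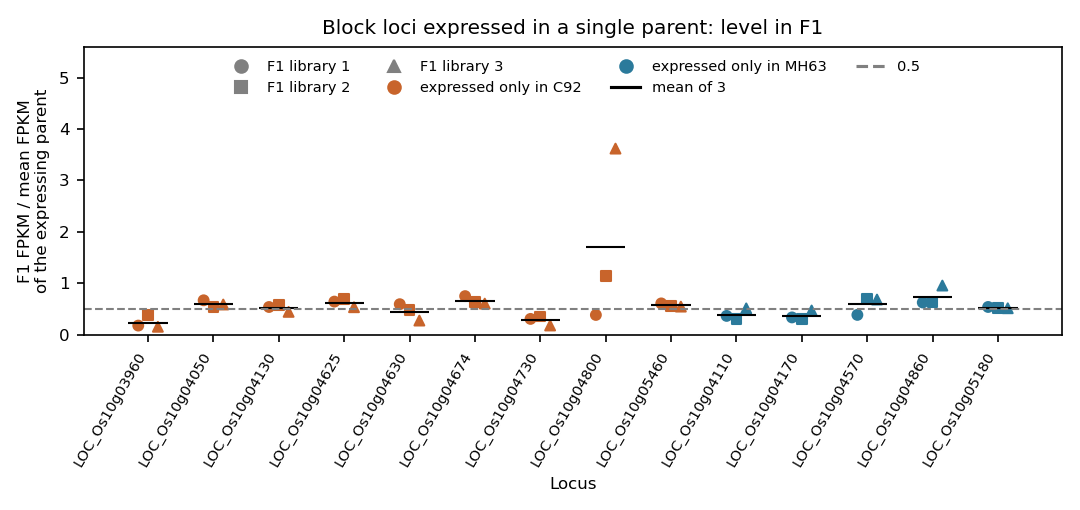
F1 FPKM divided by the mean FPKM of the expressing parent, for the 14 block loci expressed in a single parent; symbols are the 3 F1 libraries, short lines their mean, and the dashed line is 0.5. All 14 loci are above 0 in every F1 library, and the means range from 0.232 at LOC_Os10g03960 to 1.71 at LOC_Os10g04800 as means.

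Over the 25 loci past 2-fold, the median position of F1 was 0.497, and it was 0.563 over all 2331 such loci. It was 0.448 for the 17 loci higher in C92 and 0.555 for the 8 higher in MH63, against 0.534 and 0.603 over all loci of these kinds. The F1 mean lay between the parents' means at 24 of the 25, LOC_Os10g04800 being the exception, where it did so at 91.9% of all loci past 2-fold. All 3 F1 libraries lay between the libraries of the parents at 18 of the 25, where 62.1% of all loci past 2-fold did so. By library, the median position in the block was 0.535 in each of F1 libraries 1 and 2 and 0.387 in the remaining one, so library 3 was nearer to MH63 in the block as it was over all loci. In the flanks before and after the block the medians were 0.605 over 16 loci and 0.587 over 14.

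F1 was then compared with each parent in limma, adjusted over all 21447 tested loci. These comparisons use the parental libraries that chose the block, so nothing is read from their counts. Against C92, 7 of the 50 loci rose in F1 (10.6% of all tested loci) and 16 fell (13.7%). Against MH63, 18 rose in F1 (11.5%) and 6 fell (7.38%); without F1 libraries 1 and 2 these were 11 and 0. Of the 17 loci higher in C92, F1 was below C92 at 13 and above MH63 at 15, with both calls at 12, where the shares of all loci past 2-fold and higher in C92 were 64.9%, 81.2% and 50.1%. Of the 8 loci higher in MH63, F1 was above C92 at 6 and below MH63 at 5, with both calls at 4, where the shares of all such loci were 76.5%, 69.4% and 53.4%. Of the 25 loci that were not past 2-fold, 17 were called against neither parent, where 72.9% of all such loci were not.

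The mid-parent comparison asks whether the hybrid departs from the average of its parents. F1 libraries did not choose the block, but the mid-parent is built from the parental levels that did. Calls at loci past 2-fold between the parents are therefore not independent of that choice. Of the 50 tested loci, 6 were called at an adjusted p below 0.05, or 12%, where 8.94% of all tested loci were. Of these, 1 rose (3.36% of all tested loci) and 5 fell (5.58%). The shares called in the flanks were 12.2% before the block and 25.0% after it. At 2-fold or more 0 block loci were called by limma, where 1.05% of all tested loci were. At an unadjusted p below 0.05, 10 of the 50 passed, a smaller share than the 27.5% of all tested loci. The median size of the departure, whatever its direction, was 0.19 on the log2 scale in the block and 0.159 over all tested loci, and the median departure was 0.000541 in the block and 0.01 over all. The count was lower with any single library left out. It was 1 without F1 library 1, F1 library 3, C92 library 2 or C92 library 3, and 2 without MH63 library 1 or 2. It was 3 without F1 library 2 or MH63 library 3, and 4 without C92 library 1. The shares of all tested loci called in these fits are not given here. A loss of calls particular to the block can therefore not be told from a general one. With F1 libraries 1 and 2 left out, 2 rose and 3 fell, and 3 of these 5 were among the 6. With the mid-parent averaged on the log2 scale, 8 rose and 2 fell, so the balance of directions depends on how the mid-parent is defined.

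LOC_Os10g05250 was the locus that rose. It had 4.93, 5.59 and 3.58 FPKM in F1, 1.85, 1.28 and 1.43 in C92, and 3.14, 3.46 and 3.82 in MH63. F1 libraries 1 and 2 were above every parental library and library 3 was within the MH63 range. The log2 fold change over the mid-parent was 0.69 (SE 0.13, limma adjusted p = 0.0176), seen in 3 of 3 F1 libraries. The call was lost with no filter on low values, and without F1 library 1 or F1 library 2. With F1 library 3 alone, the log2 fold change was 0.39. The call was kept in 12 of its 16 alternatives, with a lowest limma adjusted p of 0.00802.

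LOC_Os10g04700 fell, with 2.31, 2.69 and 2.10 FPKM in F1, 4.75, 6.61 and 5.52 in C92, and 1.93, 2.48 and 2.86 in MH63. The F1 libraries lay within the MH63 range and below all C92 libraries. Its log2 fold change was -0.57 (SE 0.13, limma adjusted p = 0.0284). The call was lost without F1 library 1 or 3 or C92 library 2 or 3, and with no filter on low values. With F1 library 3 alone the change was -0.69. The limma adjusted p ranged from 0.0173 to 0.105 over 16 alternatives. LOC_Os10g05069 was an evenly expressed locus in the parents, with 22.67, 20.31 and 23.64 FPKM in F1, 25.85, 31.23 and 28.98 in C92, and 26.56, 27.56 and 28.37 in MH63. All F1 libraries were below all parental ones, at 79.1% of the mid-parent; the change was -0.33 on the log2 scale (SE 0.08, adjusted p = 0.0405). The call was kept in only 5 of 17 alternatives, with a lowest limma adjusted p of 0.028. Among fits without 1 library it held only without C92 library 1, and with F1 library 3 alone the change was -0.24.

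The other 3 falls were at loci past 2-fold between the parents and higher in C92. LOC_Os10g04700 was also higher in every C92 library than in any MH63 library, but it was not past that limit. LOC_Os10g03600 had 1.27, 0.99 and 0.65 FPKM in F1, 3.54, 3.13 and 2.78 in C92, and 0.40, 0.35 and 0.28 in MH63. All F1 libraries lay between the parents and below the mid-parent of 1.75 FPKM; the change was -0.49 on the log2 scale (SE 0.12, adjusted p = 0.0423). LOC_Os10g03960, already described, stood at 46.5% of the mid-parent, a log2 change of -0.77 (SE 0.18, adjusted p = 0.0354). LOC_Os10g04730 stood at 55.0%, a log2 change of -0.55 (SE 0.14, adjusted p = 0.0412). Among fits without 1 library, LOC_Os10g03600 kept its call only without F1 library 1, LOC_Os10g03960 only without F1 library 2, C92 library 1 or MH63 library 3, and LOC_Os10g04730 only without F1 library 2. The adjusted p ranged from 0.0165 to 0.165 for the first, 0.0144 to 0.511 for the second and 0.0175 to 0.668 for the third, over 16 alternatives each. All 3 calls were lost without F1 library 3, with a pseudocount of 0.1, with no filter on low values and with the log-scale mid-parent. With F1 library 3 alone, the log2 change was -0.73 at LOC_Os10g03600 and -1.06 at LOC_Os10g03960.

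**Figure D5:**
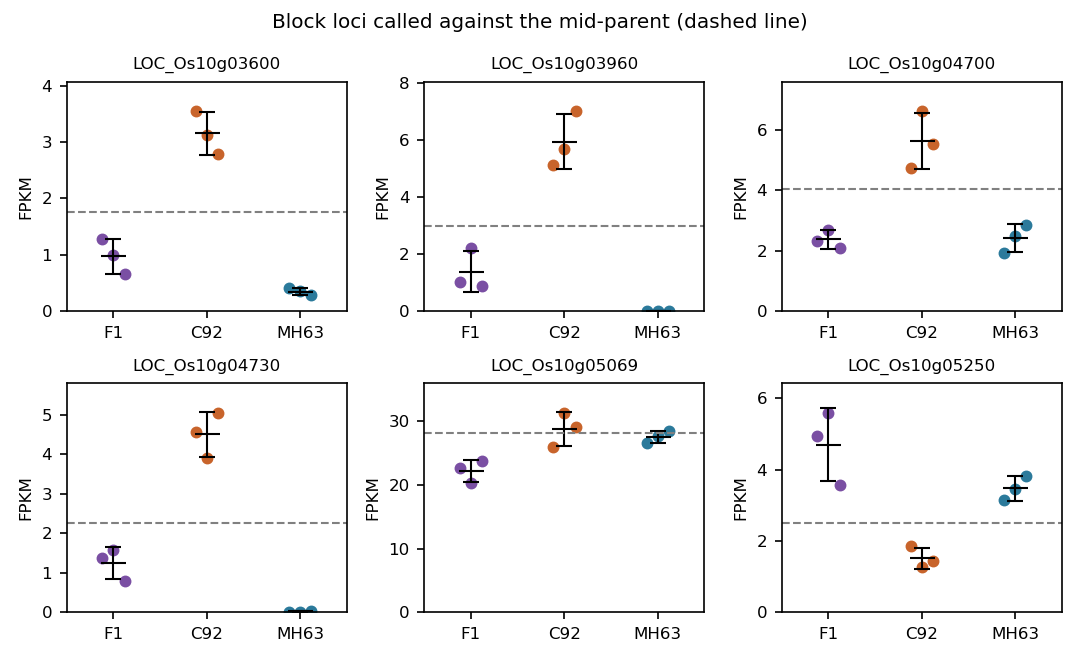
FPKM of the 6 block loci called against the mid-parent, in F1, C92 and MH63; points are libraries, black ticks with bars are the mean ± SD (n = 3) and the dashed line is the mid-parent in FPKM. F1 lies above the line at LOC_Os10g05250 and below it at the other 5 loci.

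The 5 most abundant loci of the block were LOC_Os10g05069, already described, and 4 others that were not called against the mid-parent. LOC_Os10g04270 had 29.13, 39.27 and 36.38 FPKM in F1, 31.64, 41.82 and 41.25 in C92, and 53.08, 44.40 and 41.49 in MH63. LOC_Os10g03830 had 14.20, 14.16 and 13.84 FPKM in F1, 17.16, 13.14 and 14.22 in C92, and 13.57, 13.69 and 17.38 in MH63. LOC_Os10g04620 had 15.56, 17.19 and 15.08 FPKM in F1, 18.28, 16.76 and 20.55 in C92, and 12.97, 14.86 and 10.70 in MH63. F1 overlapped C92 at all 3 loci. C92 was above MH63 in every library of LOC_Os10g04620, by 0.50 on the log2 scale, and at the others the parents overlapped; against the mid-parent the adjusted p was 0.214, 0.731 and 0.902.

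LOC_Os10g05130 had 29.52, 49.10 and 46.56 FPKM in F1, 11.08, 37.76 and 53.95 in C92, and 14.70, 12.87 and 5.78 in MH63. The F1 libraries were above every MH63 library, and the C92 libraries spread over both. Its log2 fold change over MH63 was 1.87 (limma adjusted p = 0.0348) and over the mid-parent 1.03 (SE 0.47, adjusted p = 0.191), a departure within the spread of the libraries.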

How the data were processed

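The authors deposited 1 file per library with an FPKM value for each locus, to 2 decimals and without a header; reads were aligned with HISAT2 2.0.5, per the submitters' processing notes. The sources used here name no genome build, annotation, FPKM program or strand setting, so loci that overlap on opposite strands are uncertain.

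Loci at FPKM 1 or more in at least 3 libraries (21447 of 55783) entered a linear model of log2(FPKM + 1) by limma 3.58.1 (R 4.3.3), with 9 libraries in 1 fit, a mean per group and a trend in the prior. Fold changes on this scale understate those of low loci. Tests were two-sided with Benjamini-Hochberg adjustment over all tested loci; 0.05 was the limit. The mid-parent is the log2 of the mean of the parents' fitted levels, with a delta-method error. The fit was run on simulated data in which both parents had the same mean at every locus. That run therefore did not cover loci that differ between the parents. Position is (F1 minus MH63) divided by (C92 minus MH63), from FPKM means.

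The block, lists and rules were chosen with earlier results of these data known. Loci named are the 8 with the largest parental difference in each direction, up to 6 per parent of those expressed in it alone, all called against the mid-parent, the 5 most abundant and the 2 tested loci on either side of each edge. Alternatives were other pseudocounts, filters, scalings, mid-parents and single-parent limits, each library left out, and a replicate block.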

Additional observations from a re-analysis of the deposited data

How the results depend on the processing

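The count of block loci past 2-fold between the parents was 23 to 28 with single libraries left out. Requiring a mean of at least 5 FPKM left 12 block loci to test; counts were then 2 between the parents, 1 against the mid-parent, 2 for F1 against C92 and 3 against MH63. Against the mid-parent, 6 loci were called, but 1 to 4 with single libraries left out, 3 with a pseudocount of 0.1, 3 with the replicate block, 10 with the log-scale mid-parent and 0 with no filter (limma, 119 loci tested, 19 at an unadjusted p below 0.05). Of the 10 called with the log-scale mid-parent, 3 were among the 6. F1 against C92 gave 18 to 26 calls and F1 against MH63 18 to 23 with single libraries left out; with F1 libraries 1 and 2 out, an alternative added after seeing the data, F1 against MH63 gave 11. The median F1 position was 0.482 to 0.536 with single libraries left out and 0.387 in F1 library 3 alone. The ratio of F1 to C92 was 0.516 to 0.597 with single libraries left out and 0.516 with limits of 2 and 0.05; the ratio to MH63 was 0.463 to 0.53. Same-numbered libraries of different groups correlated at -0.432 to 0.343 in their deviations. With so few libraries per group, these values cannot settle whether the numbers pair them. The replicate block gave 25, 22 and 22 calls for the parents, F1 against C92 and F1 against MH63. The shares of all tested loci called under these alternatives are not given here. Changes in the block's counts can therefore not be told from changes over all loci. No locus named for its difference changed direction. Without read numbers, no counting error can be given, and values near 0 rest on few fragments.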
